A study of Mus musculus with 19 samples.

Results

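The genes for mitochondrial ribosomal proteins were examined for peaks of CBFA2T2 in mouse neural stem cells that carried a mutant or a wild-type histone H3.3. Members were all protein-coding genes of the RefSeq mouse annotation (GRCm38.p6, the assembly also called mm10) whose symbol begins with Mrpl or Mrps followed by a digit. This gave 78 genes of 21887, on 17 chromosomes. A member counted as marked where a peak summit, the base of highest signal, lay within 1 kb of either annotated end of the gene. Such a peak is called a gene-end peak below, and where a gene had several, the one with the highest −log10 q represented it.

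Chromatin immunoprecipitation sequencing (ChIP-seq) with an antibody to CBFA2T2 was compared between H3.3K27M and H3.3WT cells. Both were made from NE-4C, a p53-deficient neural stem cell line labelled as brain, in which H3f3a, a gene for histone H3.3, had been knocked out. H3.3K27M cells stably expressed HA-tagged H3.3 with the lysine-to-methionine substitution of its name, and H3.3WT cells carried the unmutated H3.3 with the same tag, also stably expressed. The question was where CBFA2T2 sits on chromatin with either histone. The number of clones behind each line and the state of other H3.3 genes are not given in the sources used here, and peak lists hold no expression by which to check the cell type. Values came from 2 of 19 libraries, 1 for each genotype, with 8272 peaks in the H3.3K27M list and 6920 in the H3.3WT list. With 1 library per genotype there was no test between genotypes, and all values describe these libraries. Depth is unknown because no read counts accompany the peaks. The authors' fold enrichment compares the ChIP pileup at a summit with its estimated background. Folds of both lists are therefore set beside each other, and no ratio between genotypes is formed from them. The CBFA2T2 library of cells without Cbfa2t2, which would show how much signal the antibody gives without its target, was not analysed here.

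Mitochondrial ribosomes translate the few proteins encoded by mitochondrial DNA, which are core subunits of the respiratory chain and the ATP synthase. All proteins of these ribosomes are encoded in the nucleus, made in the cytosol and imported. Some have counterparts in bacterial ribosomes and others were added during the evolution of mitochondria. CBFA2T2 (MTGR1) belongs to the MTG (ETO) family of corepressors, which do not read a DNA motif themselves but join DNA-binding factors and histone deacetylase complexes.

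Most Mrp genes carried a CBFA2T2 peak at an end in both genotypes. In the H3.3K27M list 65 of 78 members were marked (83.3%, 95% Wilson interval 73.5 to 90.0%), against 28.6% of all protein-coding genes. In the H3.3WT list 64 of 78 were marked (82.1%, interval 72.1 to 89.0%), against 24.8% of all protein-coding genes. The same members made up most of both counts: 61 (78.2%) were marked in both lists, against 22.2% of all protein-coding genes. In the H3.3K27M list alone 4 members (5.13%) were marked, against a background of 6.39%, and in the H3.3WT list alone 3 members (3.85%), against 2.6%. No gene-end peak was found in either list at 10 members. The intervals cover counting error only, and genes are not replicates of a genotype.

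Most housekeeping genes have CpG-rich promoters, so the counts were set beside genes with such promoters too. Of 8452 protein-coding genes with a promoter of at least 50% G+C and an observed-to-expected CpG ratio of at least 0.6, 50.2% were marked in the H3.3K27M list and 43.8% in the H3.3WT list. Mrp genes with such a promoter numbered 55, of which 47 (85.5%) were marked in the H3.3K27M list and 45 (81.8%) in the H3.3WT list. Both shares of Mrp genes lay above those of all genes with CpG-rich promoters. Cytosolic ribosomal protein genes, whose products build the ribosome outside mitochondria, were marked at 76 of 89 in each list (85.4%). Genes of the respiratory chain and ATP synthase were marked at 60 of 87 in the H3.3K27M list (69.0%) and 59 of 87 in the H3.3WT list (67.8%).

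**Figure D1:**
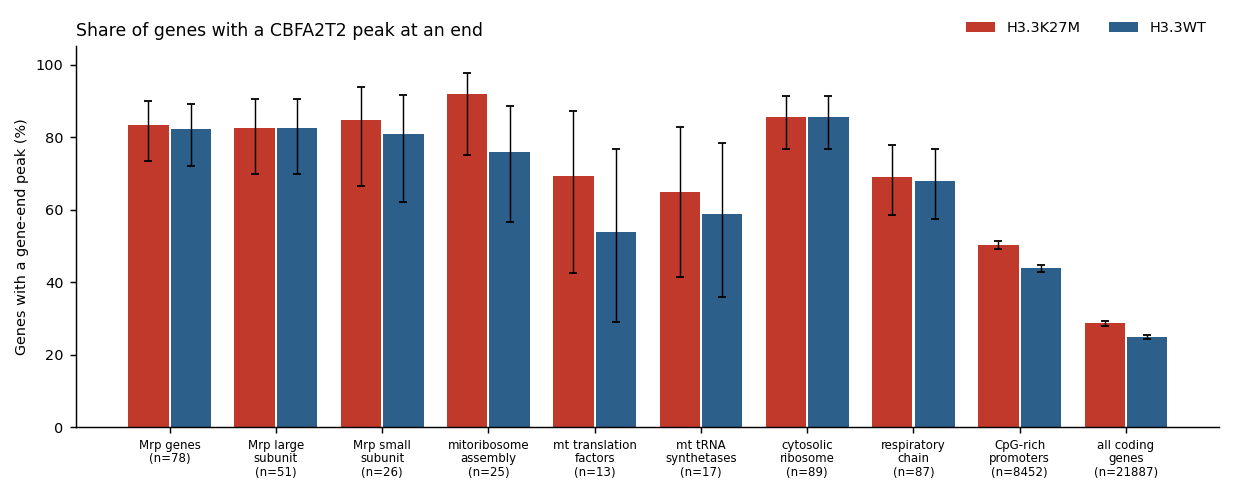
Share of genes with a CBFA2T2 gene-end peak (y axis, %) in the H3.3K27M list (red, left bar) and the H3.3WT list (blue, right bar) for gene groups with their number of genes below; error bars are 95% Wilson intervals, which cover counting error only. Mrp genes stand at 83.3% in the H3.3K27M list and 82.1% in the H3.3WT list, beside 28.6% and 24.8% of all protein-coding genes.

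Genes of both ribosomal subunits were marked. Of 51 genes for large-subunit proteins, 42 were marked in the H3.3K27M list and 42 in the H3.3WT list. Of 26 for small-subunit proteins, 22 were marked in the H3.3K27M list and 21 in the H3.3WT list. Mrps18a and Mrps30 were counted with the large subunit, where their proteins sit in spite of their names. The remaining member, Mrps36, codes for a protein now known as a component of the α-ketoglutarate dehydrogenase complex and not of the ribosome. Its peaks had 4.87 fold in the H3.3K27M list and 4.91 fold in the H3.3WT list, below the median of the members in both.

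Proteins with and without a bacterial counterpart were both represented. Of 30 large-subunit proteins with a bacterial counterpart, 23 had a marked gene in each list, and of 21 found in mitochondria alone, 19 had one in each list. In the small subunit, 13 of 16 genes for proteins with a bacterial counterpart were marked in each list. Of 10 for small-subunit proteins found in mitochondria alone, 9 were marked in the H3.3K27M list and 8 in the H3.3WT list. These classes were not tested against each other.

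The strength of Mrp peaks was close to that of marked genes at large. Among marked members the median fold was 7.30 in the H3.3K27M list, against 6.29 over all marked genes. The H3.3WT median was 6.52, against 6.91 over all marked genes. Folds ranged from 3.36 to 44.0 in the H3.3K27M list and from 3.27 to 28.8 in the H3.3WT list. The median member stood at percentile 64.3 of −log10 q in the H3.3K27M list and 59.3 in the H3.3WT list, where a percentile is the share of the list's peaks with a lower value. The medians of all marked genes were 60.6 in the H3.3K27M list and 60.1 in the H3.3WT list. In the top quartile of the H3.3K27M list by −log10 q lay 24 of the 65 marked members (36.9%), against 33.9% of all marked genes. In that of the H3.3WT list lay 22 of 64 (34.4%), against 33.1%. Cytosolic ribosomal protein genes had higher medians, 9.35 fold in the H3.3K27M list and 9.01 fold in the H3.3WT list.

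**Figure D2:**
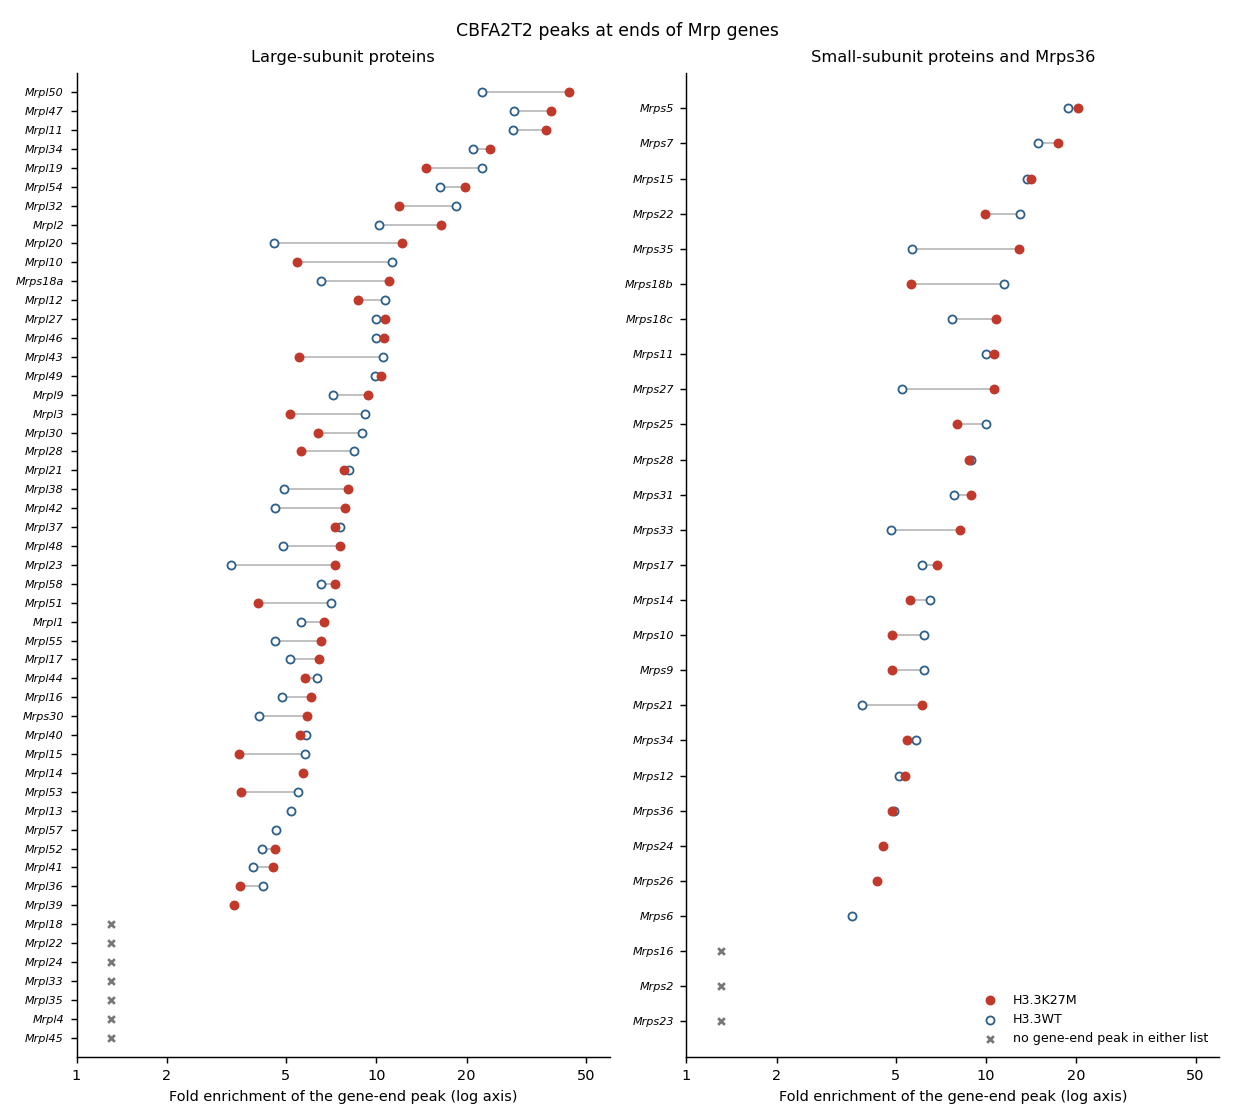
Fold enrichment (x axis, log scale) of the gene-end peak of each Mrp gene in the H3.3K27M list (filled red) and the H3.3WT list (open blue), ordered by the higher fold, with large-subunit genes on the left and small-subunit genes and Mrps36 on the right; grey lines join the values of 1 gene and crosses stand for genes with no gene-end peak in either list. The strongest peaks, at Mrpl50, Mrpl47 and Mrpl11, reach 44.0, 38.3 and 36.7 fold in the H3.3K27M list and 22.5, 28.8 and 28.6 fold in the H3.3WT list.

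The strongest member was Mrpl50, which codes for a large-subunit protein found in mitochondria alone. Its peak had 44.0 fold and a −log10 q of 272 in the H3.3K27M list, and 22.5 fold and a −log10 q of 135 in the H3.3WT list. The gene runs leftwards on chromosome 4 and starts 92 bp from Zfp189, a zinc finger gene that runs the other way, so that both share the peak. Mrpl47, for a counterpart of a bacterial protein near the exit tunnel of the large subunit, followed with 38.3 fold and a −log10 q of 213 in the H3.3K27M list, and 28.8 fold and 130 in the H3.3WT list. It shares its peak with Ndufb5, which codes for a subunit of respiratory complex I and starts 301 bp away. Mrpl11, whose protein forms the base of the stalk that receives translation factors, had 36.7 fold in the H3.3K27M list and 28.6 fold in the H3.3WT list, and no other protein-coding gene ends near that peak.

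Mrpl34, for a small protein of the large subunit with a bacterial counterpart, had 24.0 fold in the H3.3K27M list and 21.0 fold in the H3.3WT list, shared with Abhd8. In the small subunit the strongest member was Mrps5, for a protein near the path of the messenger RNA. It had 20.3 fold in the H3.3K27M list and 18.8 fold in the H3.3WT list, shared with Zfp661. Mrps7, for a protein that helps to organise the head of the small subunit, had 17.4 fold in the H3.3K27M list and 14.9 fold in the H3.3WT list. Its span overlaps that of Gga3, a Golgi adaptor gene, which shares the peak. Mrps15, for another small-subunit protein with a bacterial counterpart, had 14.1 fold in the H3.3K27M list and 13.7 fold in the H3.3WT list. These 7 genes were at or above percentile 89.6 of −log10 q in both lists, the lowest being Mrps15 in the H3.3WT list.

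Mrpl54, Mrpl19 and Mrpl12 complete the 10 members of best mean rank. Mrpl54, for a large-subunit protein found in mitochondria alone, had 19.8 fold in the H3.3K27M list and 16.3 fold in the H3.3WT list. Apba3 shares that peak. Mrpl19, for a protein with a bacterial counterpart, had 14.7 fold in the H3.3K27M list and 22.5 fold in the H3.3WT list. Mrpl12, for the stalk protein that recruits translation factors, had 8.68 fold in the H3.3K27M list and 10.7 fold in the H3.3WT list, shared with Hgs. Mrpl32, next in rank, had 11.9 fold in the H3.3K27M list and 18.4 fold in the H3.3WT list. Its protein is cut by a mitochondrial protease before it enters the ribosome.

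Promoter sequences of the strong peaks differ in what they hold. The promoter table of RefSeq (GRCm38.p6) covers 69 of the 78 members with 75 promoters, each of 250 bases before and 50 bases after a start of transcription. The bases before the start are printed below for 7 of them, as far as they lie in no other protein-coding gene, 5′ to 3′ on the strand of the gene. They were chosen to show the members with the motif ACTACANNTCC, a strong member with a different motif (Mrpl32) and a strong member with none of the motifs marked by capitals (Mrpl47). Capitals mark ACTACANNTCC and, where present, CCGGAAG (the core read by ETS factors) and GCGCATGCG (read by NRF1), on either strand. The windows are Mrpl50 at chr4:49521084-49521175 (minus strand), Mrpl34 at chr8:71464708-71464925 (plus strand), Mrpl24 at chr3:87919294-87919543 (plus strand), Mrps22 at chr9:98601680-98601929 (minus strand), Mrpl42 at chr10:95501950-95502199 (minus strand), Mrpl32 at chr13:14613038-14613241 (minus strand) and Mrpl47 at chr3:32736756-32737005 (minus strand).
Mrpl50: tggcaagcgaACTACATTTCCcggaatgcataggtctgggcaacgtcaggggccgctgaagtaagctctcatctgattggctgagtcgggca
Mrpl34: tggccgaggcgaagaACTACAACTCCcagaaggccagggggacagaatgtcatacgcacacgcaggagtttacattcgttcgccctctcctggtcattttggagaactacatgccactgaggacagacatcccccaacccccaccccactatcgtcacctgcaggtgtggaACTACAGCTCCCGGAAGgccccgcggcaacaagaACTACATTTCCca
Mrpl24: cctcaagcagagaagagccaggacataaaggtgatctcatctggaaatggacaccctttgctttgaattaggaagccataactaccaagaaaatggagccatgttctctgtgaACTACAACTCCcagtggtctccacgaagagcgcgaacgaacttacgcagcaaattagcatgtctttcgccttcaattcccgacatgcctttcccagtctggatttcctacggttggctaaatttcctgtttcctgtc
Mrps22: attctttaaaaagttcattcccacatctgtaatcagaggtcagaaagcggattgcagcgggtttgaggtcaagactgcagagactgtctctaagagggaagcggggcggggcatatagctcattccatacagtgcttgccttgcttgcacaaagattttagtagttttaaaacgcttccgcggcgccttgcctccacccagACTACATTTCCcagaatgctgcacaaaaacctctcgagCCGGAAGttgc
Mrpl42: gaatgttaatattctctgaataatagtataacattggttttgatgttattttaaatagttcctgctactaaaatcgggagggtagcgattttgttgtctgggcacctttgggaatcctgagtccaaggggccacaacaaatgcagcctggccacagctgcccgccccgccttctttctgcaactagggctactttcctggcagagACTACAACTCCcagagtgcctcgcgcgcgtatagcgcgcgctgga
Mrpl32: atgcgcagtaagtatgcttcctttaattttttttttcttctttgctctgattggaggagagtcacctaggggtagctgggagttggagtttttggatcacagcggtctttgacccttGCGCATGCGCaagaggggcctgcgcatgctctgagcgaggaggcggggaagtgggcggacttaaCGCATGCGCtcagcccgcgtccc
Mrpl47: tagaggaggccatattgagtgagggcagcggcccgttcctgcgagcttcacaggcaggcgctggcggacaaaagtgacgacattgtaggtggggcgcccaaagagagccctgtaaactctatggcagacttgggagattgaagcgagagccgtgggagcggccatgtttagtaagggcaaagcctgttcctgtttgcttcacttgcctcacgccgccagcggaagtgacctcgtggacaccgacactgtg

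The motif ACTACANNTCC is known from vertebrate promoters as the core of the sequence read by ZNF143 (Zfp143 in mouse) together with THAP11. It was chosen after values were seen, from promoters under strong peaks of these same lists. Of the 10 members of best mean rank, Mrpl50 and Mrpl34 hold it. Mrpl47, Mrpl11, Mrps5, Mrps7, Mrps15 and Mrpl12 do not, and Mrpl54 and Mrpl19 are not in the promoter table. It was found in 5 of the 75 Mrp promoters (6.67%), against 2.70% of all promoters, 9.49% of those of genes marked in both lists and 0.557% of those marked in neither. All 5 genes had a CBFA2T2 summit within 250 bp of the start in both lists. Distances from a match to a summit are taken from the centre of the match. In Mrpl50 a match begins 82 bases before the start. Its centre lies 5 bp from the H3.3K27M summit and 10 bp from the H3.3WT summit, and a further match begins 143 bases before the start. In Mrpl34 matches begin 203, 47 and 13 bases before the start. The middle one, which overlaps a CCGGAAG, lies 5 bp from the H3.3K27M summit and 8 bp from the H3.3WT summit. That CCGGAAG lies 13 bp from the H3.3K27M summit and 0 bp from the H3.3WT summit. In Mrpl24, whose bacterial counterpart starts the assembly of the large subunit, the match lies 104 bp from the H3.3K27M summit and 33 bp from the H3.3WT summit. Mrps22 and Mrpl42, both for proteins found in mitochondria alone, hold 1 match each. That of Mrps22 begins 49 bases before the start, under peaks of 9.89 fold in the H3.3K27M list and 13.0 fold in the H3.3WT list. That of Mrpl42 begins 45 bases before the start, under peaks of 7.84 fold in the H3.3K27M list and 4.61 fold in the H3.3WT list. From the H3.3K27M summit the match lies 22 bp away in Mrps22 and 117 bp away in Mrpl42. From the H3.3WT summit it lies 87 bp away in Mrps22 and 66 bp away in Mrpl42. Over all matches in Mrp promoters the median distance was 52.5 bp in the H3.3K27M list and 42 bp in the H3.3WT list. For CCGGAAG these medians were 52 bp and 35 bp, so ACTACANNTCC lay no nearer to summits.

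Over the whole genome the share of promoters with that motif was higher in each stronger quartile of peaks. Because the motif was picked from strong peaks of these lists, this rise is a description and no independent test. Of all promoters without a H3.3K27M summit 0.604% held it, and the share was 2.27%, 5.82%, 15.0% and 29.5% over the quartiles of promoters with a summit, from the weakest to the strongest. Without a H3.3WT summit the share was 0.658%, and over the quartiles it was 2.90%, 8.22%, 13.6% and 30.2%. Other motifs were also more frequent under summits. CCGGAAG was in 7.23% of promoters without a H3.3K27M summit and in 22.7%, 36.1%, 41.2% and 32.9% over the quartiles. For GCGCATGCG these shares were 1.78%, and 5.22%, 5.6%, 5.66% and 4.28%. For AAGATGGCG, the motif read by YY1, they were 0.999%, and 3.29%, 4.59%, 8.14% and 8%. In the H3.3WT list AAGATGGCG was in 1.06% of promoters without a summit, and in 3.74%, 4.96%, 7.82% and 7.47% over the quartiles. Of the 5 Mrp genes with ACTACANNTCC, Mrpl50, Mrpl34 and Mrpl24 have peaks of more than 15 fold in both lists, and Mrps22 and Mrpl42 weaker ones. A match is a description of the letters and does not show a bound factor.

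The ETS core CCGGAAG was the most frequent of the longer motifs in Mrp promoters. It was present in 26 of 75 (34.7%, Wilson interval 24.9 to 45.9%), against 11.6% of all promoters, 27.1% of those of genes marked in both lists and 5.77% of those marked in neither. The NRF1 motif GCGCATGCG, known from nuclear genes for mitochondrial proteins, was present in 7 (9.33%), against 2.35% of all promoters and 4.64% of those of genes marked in both lists. The YY1 motif AAGATGGCG was in 8 (10.7%), against 1.83% of all promoters and 4.95% of those of genes marked in both lists. Counted in the bases before the start alone, it was in 2.67% of Mrp promoters, against 0.72% of all promoters and 2.26% of those of genes marked in both lists. Mrpl9 has the centre of the NRF1 motif at the summit itself, 0 bp from it, in the H3.3K27M list and 14 bp from it in the H3.3WT list. Mrpl32 has it on both strands at 1 place, where the palindrome matches itself with a shift of 1 base, and on 1 strand at another. Among members without a gene-end peak CCGGAAG was present at Mrpl18, Mrpl22 and Mrps23, which have a summit at an internal start in both lists, and at Mrpl33 and Mrps16, which have no peak. The CCAAT box (CCAAT) was in 40.0% of Mrp promoters, against 38.2% of all and 39.4% of those of genes marked in both lists. The SP motif GGGCGG was in 52.0%, against 46.2% of all and 62.9% of those of genes marked in both lists. The E-box CACGTG was in 9.33%, against 7.84% of all and 11.8% of those marked in both lists. The E-box CAGGTG was in 13.3%, against 19.7% of all and 14.4% of those marked in both lists. Both strands were searched throughout.

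**Figure D3:**
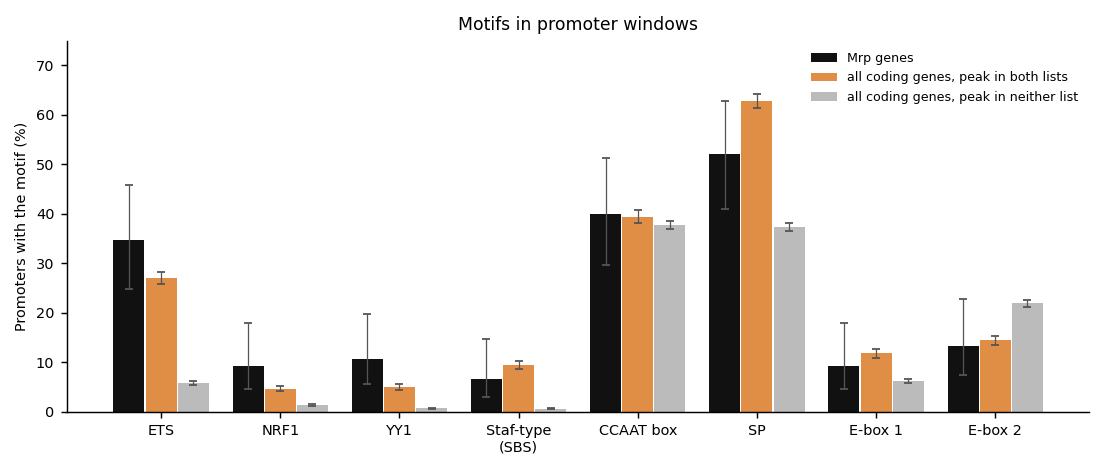
Share of promoter windows of 300 bases (y axis, %) that hold each motif (x axis) for Mrp genes (black, 75 promoters), all protein-coding genes with a gene-end peak in both lists (orange) and all with a peak in neither list (grey); error bars are 95% Wilson intervals for counting error. E-box 1 is CACGTG and E-box 2 is CAGGTG. The ETS core is in 34.7% of Mrp promoters, 27.1% of promoters of genes with a gene-end peak in both lists and 5.77% of those with one in neither.

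Most CBFA2T2 summits at Mrp genes of known strand lay near the start of transcription. Of the marked members whose strand the promoter table gives, all 58 in the H3.3K27M list had the summit nearer to the start than to the far end. Of the H3.3WT summits 55 of 56 did, and Mrpl58 was the exception. The median position was −16.5 bp from the start in the H3.3K27M list and −13 bp in the H3.3WT list, where negative values lie before the start. Within 250 bp of the start lay 50 of 58 summits in the H3.3K27M list and 52 of 56 in the H3.3WT list. The sonicated fragments of 300 to 500 bp limit this resolution. Positions relative to the start were not worked out for all marked genes, so whether this placing is particular to Mrp genes was not tested. The median distance to the nearer gene end was 55 bp in the H3.3K27M list, against 107 bp over all marked genes. In the H3.3WT list it was 65.5 bp, against 94 bp. Mrpl20, for a protein with a bacterial counterpart, had the most distant summit inside 1 kb of its start, 729 bp after it in the H3.3K27M list and 674 bp in the H3.3WT list.

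**Figure D4:**
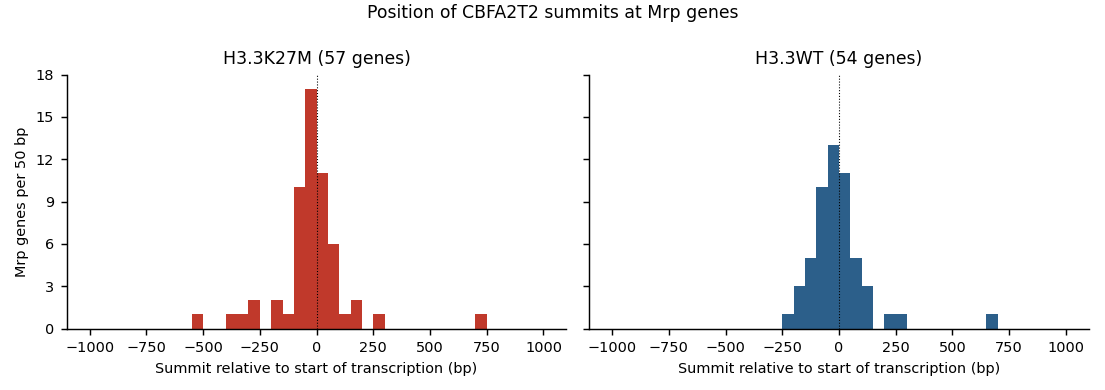
Distance of the CBFA2T2 summit from the start of transcription (x axis, bp, negative before the start) for Mrp genes in the H3.3K27M list (left, 57 genes) and the H3.3WT list (right, 54 genes), counted per 50 bp (y axis). The summits gather around 0, with medians of −16.5 bp in H3.3K27M and −13 bp in H3.3WT over all genes of known strand, of which 1 in H3.3K27M and 2 in H3.3WT lie beyond the axis.

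Lists of gene ends miss starts that lie inside a long annotated span. With any peak inside the gene or within 1 kb of it counted, 75 of 78 members (96.2%) had a CBFA2T2 peak in at least 1 list, against 37.2% of all protein-coding genes. At the known starts, 63 of 69 members (91.3%) had a summit within 1 kb in the H3.3K27M list, against 30.9% of all protein-coding genes with a known start. The H3.3WT list had one at 60 of 69 (87%), against 26.7%. In both lists 57 of the 69 had one, and 3 had none in either.

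Mrpl24 is the strongest of the members that the gene-end rule passed over. Its peak had 28.1 fold in the H3.3K27M list and 15.5 fold in the H3.3WT list, at a start inside the gene, with the summit at −28 bp from that start in the H3.3K27M list and −99 bp in the H3.3WT list. The nearer gene end was 1385 bp from the H3.3K27M summit and 1314 bp from the H3.3WT summit. Mrps23, for a small-subunit protein found in mitochondria alone, had 8.21 fold in the H3.3K27M list and 9.44 fold in the H3.3WT list at an internal start. Mrpl4, whose bacterial counterpart lines the exit tunnel, had 9.54 fold in the H3.3K27M list and 12.3 fold in the H3.3WT list inside the gene, and its start is not in the promoter table. Mrpl18, which binds the structural RNA of the central protuberance, had 6.04 fold in the H3.3K27M list and 7.27 fold in the H3.3WT list. Mrpl22, another tunnel protein, had 7.04 fold in the H3.3K27M list and 3.78 fold in the H3.3WT list. These 5 genes had internal peaks in both lists.

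Another pair of members had an internal peak in 1 list. Mrps2, for a small-subunit protein with a bacterial counterpart, had 4.53 fold in the H3.3K27M list. Mrpl45, which anchors the ribosome to the inner membrane, had 5.71 fold in the H3.3WT list, 1039 bp from the gene end and so just outside 1 kb. The member closest to that limit from within was Mrps31, with summits 974 bp from the gene end in the H3.3K27M list and 935 bp in the H3.3WT list. Only Mrpl33, Mrpl35 and Mrps16 had no peak in the gene or within 1 kb of it in either list. All 3 encode proteins with a bacterial counterpart. The nearest peak was 75133 bp from Mrpl33 in the H3.3K27M list and 75145 bp in the H3.3WT list. It was 7418 bp from Mrpl35 in the H3.3K27M list and 7487 bp in the H3.3WT list, and 2400 bp from Mrps16 in the H3.3K27M list and 2313 bp in the H3.3WT list. The annotation also holds 6 Mrp pseudogenes, and the peak closest to any of them lay 12436 bp away in the H3.3K27M list and 38919 bp away in the H3.3WT list.

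Many Mrp peaks also lie within 1 kb of an end of another gene, and such a peak cannot be given to 1 gene by this rule. In the H3.3K27M list 32 of the 65 marked members (49.2%) shared their peak with another protein-coding gene, against 34.7% of all marked genes. Among H3.3WT peaks 34 of 64 were shared (53.1%), against 36.8% of all marked genes. For cytosolic ribosomal protein genes this share was 22.4% in the H3.3K27M list and 21.1% in the H3.3WT list. For respiratory chain genes it was 53.3% in the H3.3K27M list and 52.5% in the H3.3WT list. Taking both lists, 35 members had such a neighbour. In 26 of these the genes point away from each other, in 3 they point the same way, in none towards each other, and in 6 the orientation is not known. Counted per member, the median gap between the divergent spans was 56 bp, with overlaps taken as negative, and 9 of the 26 overlapped. Mrpl46 and Mrps11, each the neighbour of the other, were both counted. With the neighbour's end within 500 bp of the summit, 29 members shared a peak in the H3.3K27M list and 31 in the H3.3WT list. Some shared summits lay far nearer to the member. In the H3.3K27M list that of Mrpl12 was 10 bp from its own gene end and 643 bp from that of Hgs.

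Several of these neighbours also serve mitochondria. The only pair made of 2 members is Mrpl46 and Mrps11, a large-subunit and a small-subunit protein, whose spans lie 41 bp apart. Their common peak had 10.6 fold in the H3.3K27M list and 10.0 fold in the H3.3WT list, both with a −log10 q of 24.5. Mrps12, for a protein of the decoding centre, shared its peak with Sars2, the mitochondrial seryl-tRNA synthetase, at 5.36 fold in the H3.3K27M list and 5.14 fold in the H3.3WT list. Mrpl43 overlaps Twnk, the helicase that unwinds mitochondrial DNA, and their peak had 5.51 fold in the H3.3K27M list and 10.5 fold in the H3.3WT list. Mrps27 stands beside Ptcd2, for a mitochondrial RNA-binding protein, with 10.6 fold in the H3.3K27M list and 5.23 fold in the H3.3WT list.

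Mrpl36 shows how a neighbour can take part in such a count. Its gene-end peak, with 3.50 fold in the H3.3K27M list and 4.20 fold in the H3.3WT list, lay at the start of the complex I gene Ndufs6. From the start of Mrpl36 that the promoter table gives, that summit lay at −2457 bp in the H3.3K27M list and −2538 bp in the H3.3WT list. At that start a separate peak of 7.14 fold was found in the H3.3K27M list, and none in the H3.3WT list. Mrpl48 likewise had a gene-end peak shared with Rab6a, a GTPase gene, of 7.55 fold in the H3.3K27M list and 4.90 fold in the H3.3WT list, and a stronger one at a start of its own inside the gene, of 12.0 fold in the H3.3K27M list and 11.4 fold in the H3.3WT list.

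Other neighbours have roles outside mitochondria. Mrpl40 shared its peak with Hira, which codes for a chaperone that deposits H3.3 in chromatin, at 5.55 fold in the H3.3K27M list and 5.82 fold in the H3.3WT list. The summits lay 399 bp apart, the widest gap of any member with the same site in both lists. Mrpl49 shared with Fau, which codes for a cytosolic ribosomal protein fused to a ubiquitin-like part, 10.4 fold in the H3.3K27M list and 9.93 fold in the H3.3WT list. Mrpl32 shared its peak with Psma2, a proteasome subunit gene. Mrpl51 shared 4.04 fold in the H3.3K27M list and 7.09 fold in the H3.3WT list with Ncapd2, a condensin subunit gene. Mrps18c shared 10.8 fold in the H3.3K27M list and 7.70 fold in the H3.3WT list with Helq, a DNA helicase gene, and Mrpl27 shared 10.7 fold in the H3.3K27M list and 10.0 fold in the H3.3WT list with Eme1, for a subunit of a DNA endonuclease.

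Where a member was marked in both genotypes, the site was nearly always the same. The peaks overlapped at 59 of 61 members (96.7%), against 98.7% of all genes marked in both lists, a share near the background. The median between summits of overlapping peaks was 33 bp, against 40 bp over all such genes. At 38 of the 59 members (64.4%) the summits lay within 50 bp of each other, against 57.9%. The exceptions to overlap were Mrpl53 and Mrpl58. At Mrpl58, which codes for a peptidyl-tRNA hydrolase that frees stalled ribosomes, the strongest H3.3WT peak lay at the far end of the gene, 9091 bp from the start, with 6.52 fold. A weaker H3.3WT peak of 3.67 fold lay at the start, where the H3.3K27M peak had 7.28 fold.

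Ranks of the same member in both lists ranged from nearly equal to far apart. The fold was higher in the H3.3K27M list at 36 of 61 members (59.0%), against 46.6% of all genes marked in both lists. By percentile of −log10 q, 11 members (18%) stood more than 25 points higher in the H3.3K27M list, against 12.7% of all such genes, and 1 member (1.64%) stood that much lower, against 5.09%. The median shift of members was 2.80 points, against 2.49 points over all such genes.

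Mrpl23, for a protein at the mouth of the exit tunnel, moved farthest. Its peak had 7.30 fold and stood at percentile 63.8 in the H3.3K27M list, and had 3.27 fold and percentile 2.50 in the H3.3WT list. Mrpl20 had 12.2 fold and percentile 89.2 in the H3.3K27M list, and 4.55 fold and percentile 45.3 in the H3.3WT list. Mrps35, for a small-subunit protein found in mitochondria alone, had 12.9 fold in the H3.3K27M list and 5.66 fold in the H3.3WT list. Mrps30 had 5.88 fold in the H3.3K27M list and 4.07 fold in the H3.3WT list. The member that moved the other way was Mrpl15, for a protein with a bacterial counterpart, with 3.49 fold and percentile 16.1 in the H3.3K27M list, and 5.77 fold and percentile 47.5 in the H3.3WT list. Whether such gaps exceed the spread between replicate libraries was not tested.

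**Figure D5:**
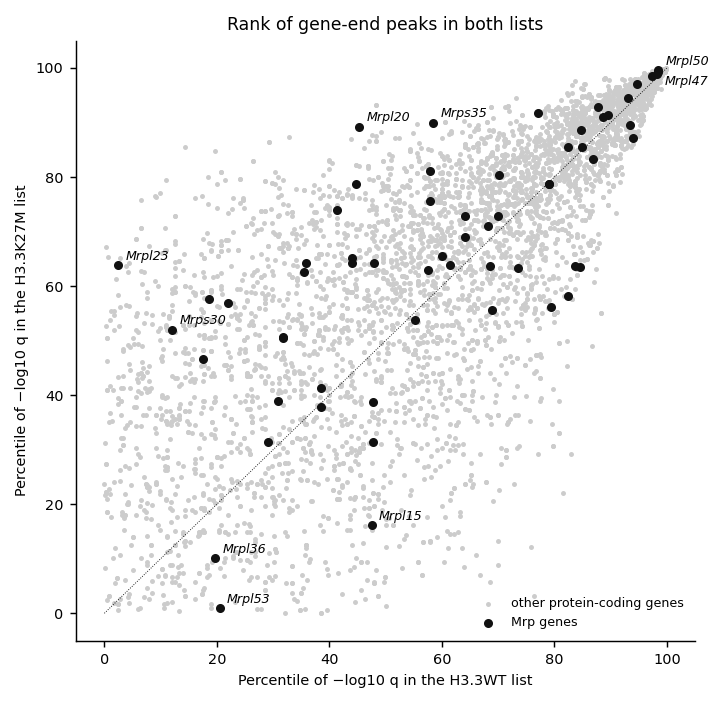
Percentile of −log10 q of the gene-end peak in the H3.3K27M list (y axis) and in the H3.3WT list (x axis) for the 61 Mrp genes marked in both lists (black) and all other protein-coding genes marked in both (grey); the dotted line marks equal percentiles. Mrpl50 and Mrpl47 lie at the upper right in both lists, while Mrpl23 stands at 63.8 in H3.3K27M and 2.50 in H3.3WT.

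Members marked in a single list had peaks in the lower part of their lists by −log10 q. In the H3.3K27M list alone were Mrpl14 with 5.70 fold, Mrpl39 with 3.36 fold, Mrps24 with 4.53 fold and Mrps26 with 4.33 fold. Mrpl14 and Mrps24 code for counterparts of bacterial proteins, and Mrpl39 and Mrps26 for proteins found in mitochondria alone. The H3.3WT list alone held Mrpl13 with 5.18 fold, Mrpl57 with 4.63 fold and Mrps6 with 3.58 fold. Of these 7 members 4 shared the peak with a neighbour, Mrpl14 with Tmem63b, a channel gene, Mrpl13 with Mtbp, Mrpl57 with Ska3, a kinetochore gene, and Mrps6 with Slc5a3, a transporter gene. These peaks lay between percentile 1.45 and 38.4 of −log10 q in their own lists. By fold, Mrpl14 stood at percentile 51 of the H3.3K27M list. The lowest −log10 q in the lists was 1.31 in H3.3K27M and 1.33 in H3.3WT. Mrpl39 (2.54 in H3.3K27M) and Mrps6 (1.84 in H3.3WT) were close to it, and the other 5 had values from 5.12 to 7.31. With peaks of at least 5 fold, 11 members (14.1%) were in the H3.3K27M list alone, against 4.22% of all protein-coding genes. In the H3.3WT list alone were 6 (7.69%), against 3.86%. At that threshold 67.9% of members were marked in the H3.3K27M list, against 19.4%, and 61.5% in the H3.3WT list, against 19.1%. The shares in 1 list alone are over all genes of a group, marked or not, so they do not compare marked genes.

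The members with the lowest −log10 q included several that were marked in both lists. In the H3.3K27M list they were those of Mrpl53 with a −log10 q of 1.69, Mrpl39 with 2.54 and Mrpl36 with 3.22. The H3.3WT ones were those of Mrps6 with 1.84, Mrpl23 with 2.10 and Mrps30 with 3.69. Of these, Mrpl53, Mrpl36, Mrpl23 and Mrps30 were marked in both lists.

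Other genes of mitochondrial translation were marked too. Of 5 ribosomal proteins of mitochondria with other symbols, Ptcd3, Chchd1, Aurkaip1 and Gadd45gip1 had marked genes in both lists, with folds from 6.11 to 7.63 in the H3.3K27M list and from 5.96 to 8.55 in the H3.3WT list, and Dap3 had no gene-end peak. Of 25 genes for assembly factors and enzymes that modify ribosomal RNA, 23 were marked in the H3.3K27M list (92.0%) and 19 in the H3.3WT list (76.0%). By −log10 q the strongest were Fastkd2, for an RNA-binding assembly factor, with 13.1 fold in the H3.3K27M list and 15.4 fold in the H3.3WT list, and Dhx30, for an RNA helicase, with 13.0 fold in the H3.3K27M list and 12.5 fold in the H3.3WT list. Mrm3, for an enzyme that methylates ribosomal RNA, had 18.1 fold in the H3.3K27M list and 8.86 fold in the H3.3WT list. Rbfa, Nsun4, Tfb1m, Mrm1 and Mettl15 were marked in the H3.3K27M list alone, and Mtg1 in the H3.3WT list alone.

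Of 13 genes for translation factors and activators, 9 were marked in the H3.3K27M list and 7 in the H3.3WT list. Lrpprc, which stabilises mitochondrial messenger RNAs, had 17.1 fold in the H3.3K27M list and 23.0 fold in the H3.3WT list. Tufm, the elongation factor that delivers aminoacyl-tRNA, had 11.3 fold in the H3.3K27M list and 17.2 fold in the H3.3WT list. Mtif3, Gfm1 and Mtrf1 were marked in the H3.3K27M list alone and Tsfm in the H3.3WT list alone. Of 17 genes for mitochondrial aminoacyl-tRNA synthetases, 11 were marked in the H3.3K27M list and 10 in the H3.3WT list. Fars2, the mitochondrial phenylalanyl-tRNA synthetase, had 11.7 fold in the H3.3K27M list and 15.5 fold in the H3.3WT list. Cars2, Iars2 and Nars2 were marked in the H3.3K27M list alone, and Pars2 and Vars2 in the H3.3WT list alone.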

How the data were processed

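CBFA2T2 ChIP-seq of H3.3K27M and of H3.3WT cells was analysed, 1 library each. The series' other 17 libraries were left out. Per the submitters' processing notes, Trim Galore was used for trimming and MACS2 for calling peaks on mm10, with versions unstated. The sources used here do not give the aligner, the treatment of duplicates or the caller's settings. Each deposited list gives position and summit per peak, a fold enrichment (a linear ratio), −log10 p and −log10 q, all made by the authors' peak caller against an input. The deposited score column was not used. The files hold no read counts, so the depth is unknown.

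Coordinates were turned to 1-based. Gene spans and promoters came from RefSeq GRCm38.p6, the assembly of mm10. No strand accompanies the gene spans, so strand and start were taken from the promoter table, which holds 69 of 78 members. A gene was marked by a summit within 1000 bp of either end. Neighbours were other protein-coding genes with an end within the same distance of that summit. Counting used Python 3.11.15, pandas 2.3.3 and SciPy 1.17.1, with Wilson intervals, and was checked on simulated peaks of known position. Peak lists without replicates allow no test between genotypes. The members and gene lists were chosen with earlier results of these data known, and the motif ACTACANNTCC after values were seen.

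Values are given for the 10 members of best mean rank of −log10 q, those marked in 1 list, the 3 lowest per list, those sharing a peak with a neighbour of known role, those without a gene-end peak, and, of other lists, up to 4 of the highest −log10 q. Members with large shifts between the lists, with motifs or with internal peaks were named after their values were seen. A gene that this rule picked is not reported here.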

Additional observations from a re-analysis of the deposited data

How the results depend on the processing

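The counts of marked Mrp genes held within 1.5 times under every alternative tried. They were stricter peak thresholds, equal list lengths, lists without their 1% highest folds, windows of 500 bp and 3 kb, any base of a peak within 1 kb, starts of transcription, and, added after seeing the data, gene ends or starts together. They ran from 53 to 71 members in the H3.3K27M list, from 48 to 70 in the H3.3WT list and from 42 to 66 in both. Counts in a single list were less stable. Those in the H3.3K27M list alone were 4 as reported and 3 with lists of equal length (3.85%, against 4.25% of all protein-coding genes). At a −log10 q of at least 5 they were 8 (10.3%, against 5.33%). At a fold of at least 5 they were 11 (14.1%, against 4.22%). All these shares are over every gene of a group, marked or not. Those in the H3.3WT list alone were 3 as reported and 6 at a fold of at least 5 (7.69%, against 3.86%). They were also 6 with lists of equal length (7.69%, against 3.79%) and 6 without the 1% highest folds (7.69%, against 2.82%). In that last setting Mrpl11, Mrpl47 and Mrpl50 lose their H3.3K27M peaks by construction. With lists of equal length Mrpl15, Mrpl36 and Mrpl53 lose theirs by construction too. There only the 6920 H3.3K27M peaks of highest −log10 q were kept. For the rest the cause was not tested. With the promoter cut to the bases before the start, the ETS core was in 24.0% of Mrp promoters and the YY1 motif in 2.67%. Depth, replicate spread and the signal without CBFA2T2 were not measured in these lists, so what a peak absent from 1 list means was not tested. No paired analysis was possible because each genotype has 1 library and the labels give no replicate numbers.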
